A study of Rattus norvegicus with 9 samples.

Results

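The ADAM family consists of metalloproteases that cut proteins at the cell surface (the ADAMs), secreted metalloproteases that cut proteins of the extracellular matrix (the ADAMTS enzymes), and ADAMTS-like proteins, which share the matrix-binding repeats but have no protease domain. Members were the genes whose symbol in the deposited table consisted of Adam, Adamts or Adamtsl followed by a number and at most 1 letter. This rule uses names alone and took 49 of the 32623 genes. Of these, 21 reached an FPKM of at least 1 (a read count scaled to exonic length and library depth) in at least 3 of the 9 libraries, and these are called expressed and were tested among 11197 genes.

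ADAMs span the membrane and release the outer part of growth factors, cytokines, receptors and adhesion molecules, a step called shedding. ADAMTS enzymes bind the matrix through thrombospondin repeats. There they cut large proteoglycans such as versican and aggrecan, trim procollagens, or cut glycoproteins such as cartilage oligomeric matrix protein (COMP) and fibrillin-associated proteins. In the artery wall, smooth muscle cells make many of these enzymes as well as their substrates, and tissue inhibitors of metalloproteases (TIMPs) restrain some of them.

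The libraries came from rat primary aortic smooth muscle cells of wild-type genotype, at passages 4 to 8, grown in 20% serum, kept for 12 h without serum and then treated in 2% serum. The 3 groups had 3 libraries each. In the Control group the cells were given DMSO, the solvent. Cells of the PDGF-BB group were stimulated for 24 h with platelet-derived growth factor BB, which makes smooth muscle cells divide and migrate, at 10 ng/mL in the sample labels and 20 ng/mL in the series design. Cells of the PDGF-BB+PTUPB group were given 0.5 µM PTUPB 2 h ahead of PDGF-BB. This compound inhibits both cyclooxygenase-2 and soluble epoxide hydrolase. No group received PTUPB alone, so each PTUPB value includes PDGF-BB. The study asked how PTUPB affects the change of cell state that PDGF-BB brings about.

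Counts summed to between 12729187 and 16911050 per library. Whether libraries of 1 group are separate cultures or animals is not stated in the labels. The p-values thus measure the spread among these libraries only, and that spread may be technical. Among the 9 libraries, Control replicate 2 and PDGF-BB replicate 3 stood apart in how counts depended on exonic length. In them, long genes were lower than the average of the other libraries of their own group. Spearman's rho between this deviation and length was -0.39 and -0.38 across genes. In the others rho lay between -0.13 and 0.35. The expressed members were long, with a median exonic length of 4093 bases against 2336 for all tested genes. For several members, values are therefore also given without 1 or both of these libraries, or with a correction for length.

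**Figure D1:**
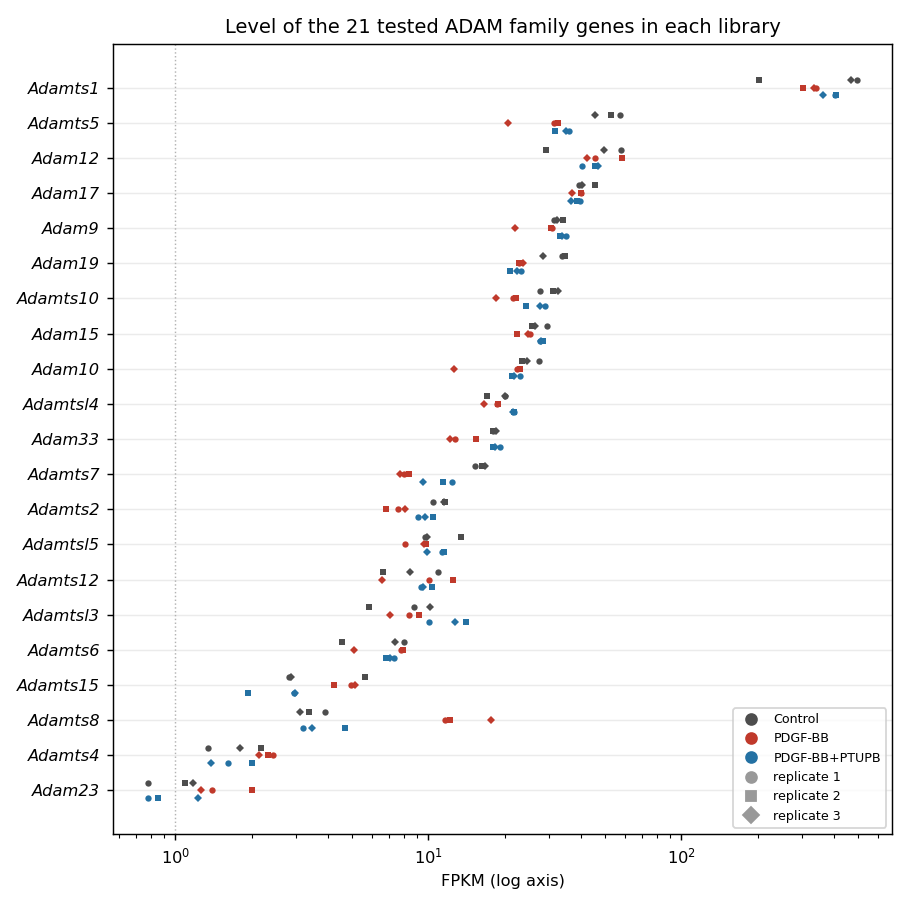
FPKM of the 21 expressed members (log axis) in each library, coloured by group and marked by replicate, ordered by the mean over Control. Adamts1 lies far above the rest, Control replicate 2 of Adamts1 lies below every other library, and the 3 PDGF-BB libraries of Adamts8 lie clear of the other 6.

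Adamts1, a secreted enzyme that cuts versican and aggrecan, had the highest level of the family per length. Its FPKM was 494, 202 and 467 in Control, 339, 303 and 335 with PDGF-BB, and 404, 407 and 364 with PDGF-BB+PTUPB (replicates 1 to 3 in each). Control replicate 2 was the lowest of all 9 libraries. Adamts1 alone made up 34.4% to 54.2% of the summed FPKM of the family in Control, 45.4% to 52.6% with PDGF-BB and 50.2% to 53.0% with PDGF-BB+PTUPB. Without Adamts1, the family summed to 385 to 418 FPKM in Control, 302 to 364 with PDGF-BB and 360.1 to 366 with PDGF-BB+PTUPB, so that Control did not overlap with either treated group.

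Below Adamts1, the Control means followed in a close order. Adamts5, another enzyme that cuts versican and aggrecan, stood at 51.8 ± 6.02 FPKM (SD, n = 3). Next came Adam12, a shedding enzyme of mesenchymal cells, at 45.5 ± 14.8, and Adam17, which releases tumour necrosis factor and ligands of the epidermal growth factor receptor, at 41.7 ± 3.20. The libraries of Adam12 overlapped with those of both neighbours in this order. Adam9, Adam19, Adamts10, Adam15 and Adam10 lay between 25.1 and 32.6 FPKM in Control. Adamtsl4, Adam33, Adamts7, Adamts2 and Adamtsl5 lay between 10.99 and 19.1, and Adamts12, Adamtsl3, Adamts6, Adamts15 and Adamts8 between 3.45 and 8.69. The lowest of the expressed members were Adamts4 (1.77 ± 0.416) and Adam23 (1.01 ± 0.206). All but Adam23 were at an FPKM of 1 or more in all 9 libraries. Adam23 reached it in 6, among them the 3 PDGF-BB libraries, so that PDGF-BB alone would have carried it past the filter.

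The other 28 members were not tested. Of these, 10 were listed at 0 in every library, among them Adamts13, which cuts von Willebrand factor, and 7 of the 14 ADAMs known mainly from the germ line. A further 14 had counts of at most 10 in any library and an FPKM of at most 0.29. The remaining 4 were Adamts3, Adam1a, Adamts9 and Adamts14, with mean Control levels of 0.947, 0.927, 0.837 and 0.38 FPKM.

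With PDGF-BB, 1 expressed member rose (Adamts8) and 6 fell (Adamts7, Adamts5, Adamts2, Adamts10, Adam19 and Adam33). A gene was called where the Benjamini-Hochberg adjusted p of edgeR's quasi-likelihood test, two-sided and adjusted over all 11197 genes, was under 0.05. The 7 called members are 33.3% of the 21, against 33.2% of all tested genes, so the share of members called was at the background. By direction, 17.3% of all genes were called higher and 15.8% lower. The median log2 fold change of the members was -0.24, against -0.02 for all tested genes, and 15 of the 21 were below 0. In bulk RNA, a change in the number of cells of a type and a change in RNA per cell cannot be told apart.

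When PTUPB was added to PDGF-BB, Adamts8 fell and 5 members rose (Adam33, Adamts7, Adamts2, Adamts10 and Adamtsl4). These 6 are 28.6% of the members, against 18.3% of all tested genes (8.28% called higher and 10.0% lower). The median log2 fold change was 0.26 for the members and 0.01 for all genes, and 15 of 21 were above 0. Between PDGF-BB+PTUPB and Control, 2 members were called, Adamts7 and Adam19, both lower, against 2.21% of all genes (1.89% higher and 0.313% lower). The median was -0.07 for the members and -0.01 for all genes. The comparisons share groups, so opposite signs in the first 2 of them are not independent of each other.

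Single libraries moved these counts. Without Control replicate 2, the count for PDGF-BB against Control was 11, with Adamts1, Adam15 and Adamtsl4 also lower and Adamts15 also higher, while the share over all genes was 34.8%. Without both libraries that stood apart, 12, 11 and 5 members were called in the 3 comparisons in the order above, while the shares over all genes rose to 38.1%, 25.2% and 12.0%. The calls gained between PDGF-BB+PTUPB and Control were Adam10, Adamts1 and Adamts5, all lower. The 2 calls between PDGF-BB+PTUPB and Control fell to 1 without Control replicate 3 or PDGF-BB+PTUPB replicate 3, and to 0 without PDGF-BB+PTUPB replicate 2. The share over all genes fell as well, from 2.21% to 1.13%, 0.831% and 0.84% in the same order.

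**Figure D2:**
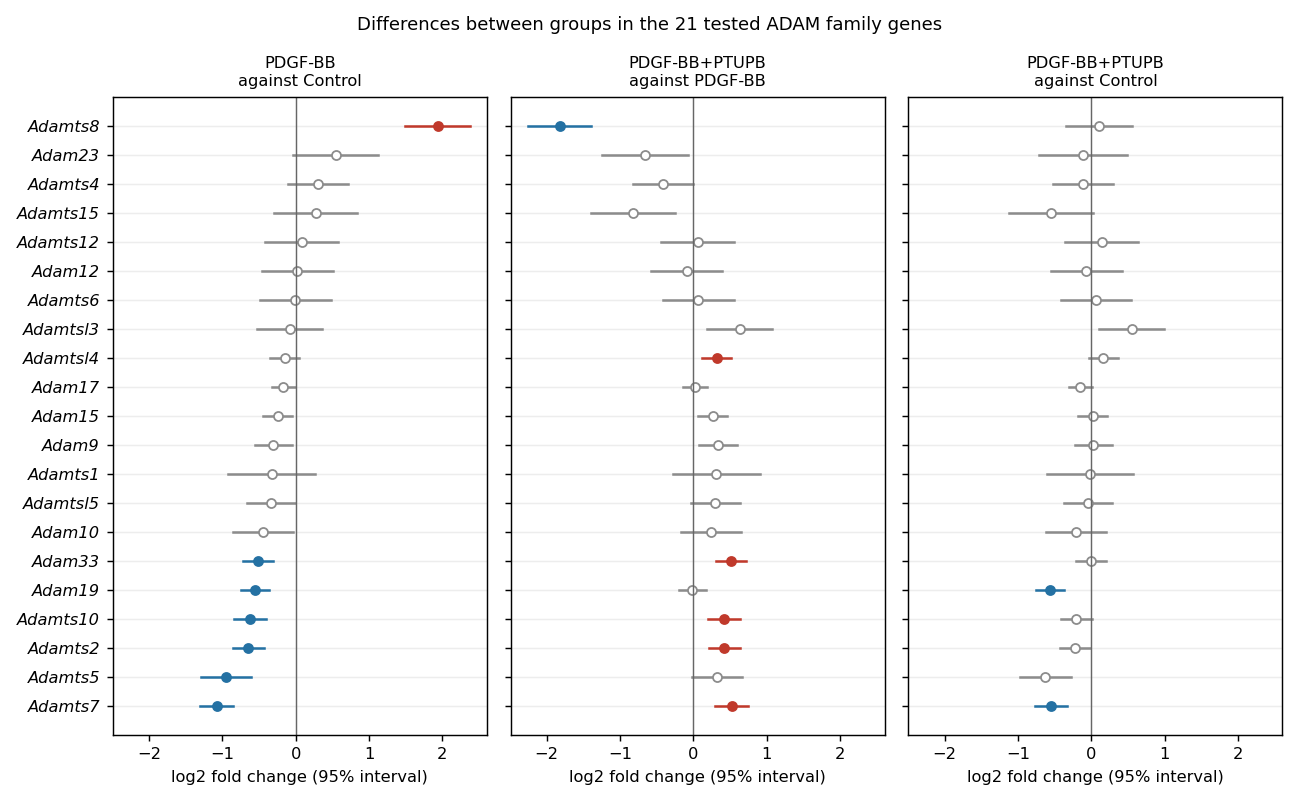
Log2 fold change of the 21 expressed members in the 3 comparisons, with 95% intervals, ordered by the change with PDGF-BB. Filled red points were called higher, filled blue points called lower and open points not called. Adamts8 has the largest change in the first 2 panels, and of the 6 members called lower in the first panel all but Adam19 lie nearer to 0 in the third.

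Among the enzymes that cut versican and aggrecan, Adamts8 had the clearest pattern. It is a secreted protease also known for inhibiting the growth of blood vessels. Its level was 12.2, 10.2 and 9.61 CPM (counts scaled to library size with edgeR's TMM factors) in Control, 34.5, 35.5 and 52.5 CPM with PDGF-BB, and 9.74, 14.2 and 10.5 CPM with PDGF-BB+PTUPB. All 3 PDGF-BB libraries lay above the other 6, and Control and PDGF-BB+PTUPB overlapped. The rise with PDGF-BB was 1.94 ± 0.20 on the log2 scale (SE), a 3.82-fold difference (edgeR adjusted p = 7.8e-05). With PTUPB added it fell by 1.83 ± 0.20 (edgeR adjusted p = 0.000624). Against Control, the PDGF-BB+PTUPB level differed by 0.11, with a 95% interval of -0.34 to 0.56. Both calls held in all 21 alternative settings.

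Adamts5 fell with PDGF-BB. Its level was 189.6, 168 and 148 CPM in Control, 97.9, 99.4 and 64.6 CPM with PDGF-BB, and 115, 101 and 111 CPM with PDGF-BB+PTUPB. Control lay above both treated groups, and PDGF-BB lay just below PDGF-BB+PTUPB. The log2 fold change with PDGF-BB was -0.95 ± 0.16 (edgeR adjusted p = 0.00129). The difference that PTUPB made was 0.32 (95% interval -0.02 to 0.67) and was not called. Against Control, Adamts5 was 0.63 lower with PDGF-BB+PTUPB on the log2 scale, which was not called (edgeR adjusted p = 0.0797) but passed in 7 of 21 alternatives, for instance without PDGF-BB replicate 3 (0.00614).

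Adamts1, the most abundant member, lies next to Adamts5 on chromosome 11 with no gene between them in the deposited table. It was at 2258, 895 and 2106 CPM in Control, 1459, 1283 and 1446 CPM with PDGF-BB, and 1786, 1801 and 1602 CPM with PDGF-BB+PTUPB. Control replicate 2 fell below all PDGF-BB libraries while the other Control libraries lay above them. The log2 fold change with PDGF-BB was -0.33 ± 0.27 and not called (edgeR adjusted p = 0.37). Without Control replicate 2 it was -0.64 and called (0.00071). PDGF-BB+PTUPB lay above PDGF-BB in every library, by 0.31 ± 0.27, which was likewise called only where Control replicate 2 or the Control group was left out of the fit.

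Adamts15, a further enzyme of this group, neighbours Adamts8 on chromosome 8, on the opposite strand and with no gene between. It was at 17.7, 34.1 and 17.8 CPM in Control, 29.2, 24.7 and 30.5 CPM with PDGF-BB, and 17.9, 11.8 and 18.0 CPM with PDGF-BB+PTUPB. Control replicate 2 was the highest of all 9 libraries, and all PDGF-BB libraries lay above those with PTUPB. The difference between PDGF-BB and Control was 0.27 (edgeR adjusted p = 0.434), and 0.66 without Control replicate 2 (0.0193). PDGF-BB+PTUPB was lower than PDGF-BB by 0.83 ± 0.26, which just missed the threshold (edgeR adjusted p = 0.0502), and this was called in 8 of 21 alternatives. Adamts4, the last expressed enzyme of this group, was at 7.84 to 12.3 CPM in Control, 11.8 to 13.4 with PDGF-BB and 7.77 to 11.4 with PDGF-BB+PTUPB, and was called in no comparison or alternative.

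As a group, these 5 expressed enzymes therefore held 1 gene that rose with PDGF-BB, 1 that fell and 3 not called. Over all tested genes, 33.2% were called. Their summed FPKM, mostly Adamts1, was 266 to 559.8 in Control, 354 to 389 with PDGF-BB and 407 to 448 with PDGF-BB+PTUPB.

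**Figure D3:**
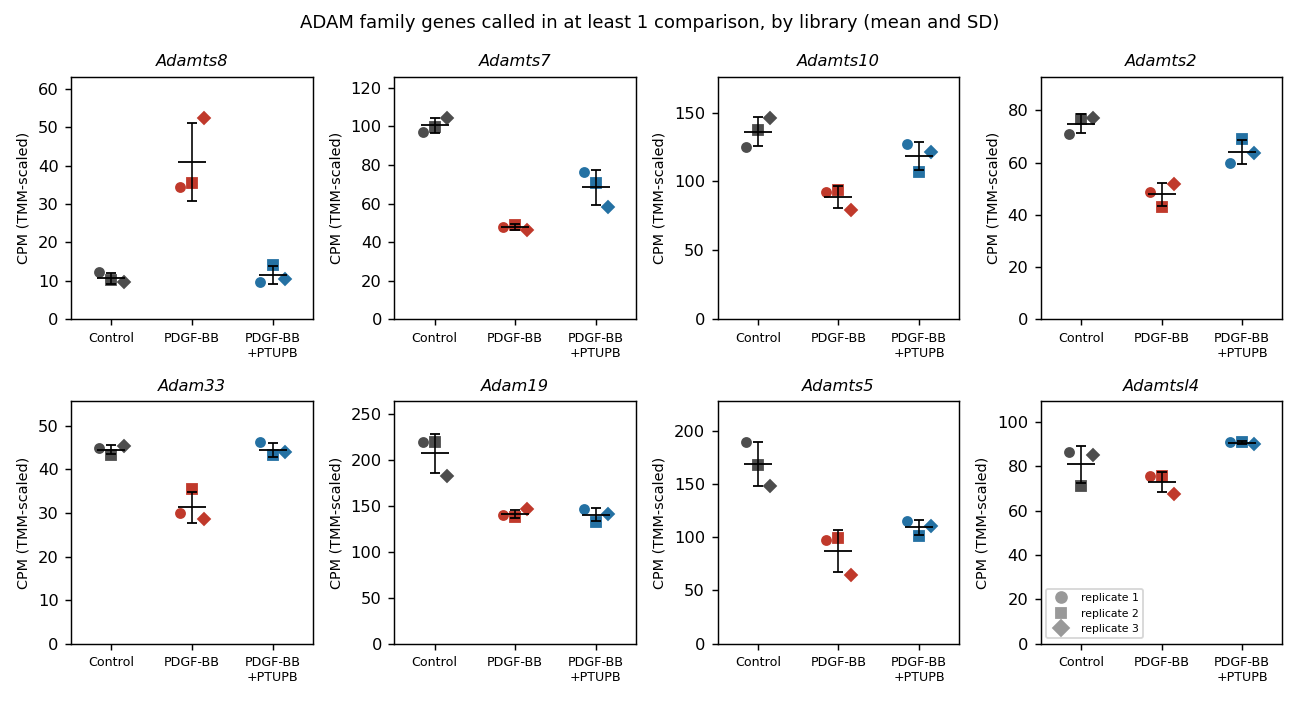
TMM-scaled CPM in each library of the 8 members called in at least 1 comparison, with the mean and SD of each group (n = 3). Adamts8 is high in the PDGF-BB libraries alone, Adamts7, Adamts10, Adamts2 and Adam33 are lowest there, and Adam19 is low in both treated groups.

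Adamts7, which cuts COMP and is known to promote the migration of smooth muscle cells, had the largest fall among the 21 expressed members. It was at 96.9, 99.8 and 105 CPM in Control, 47.7, 49.1 and 46.2 CPM with PDGF-BB, and 76.5, 70.4 and 58.4 CPM with PDGF-BB+PTUPB. The 3 groups did not overlap, and PDGF-BB+PTUPB lay between the other two. The log2 fold change was -1.08 ± 0.10 with PDGF-BB (edgeR adjusted p = 5.11e-05), called in all 21 alternatives. With PTUPB it was 0.52 ± 0.10 higher than with PDGF-BB alone (edgeR adjusted p = 0.00672), called in 20. Against Control, PDGF-BB+PTUPB stayed lower by 0.55 ± 0.10 (edgeR adjusted p = 0.0174). That call was lost without Control replicate 3 (0.0816), without PDGF-BB+PTUPB replicate 2 (0.0831) or replicate 3 (0.0617), and with a correction for gene length (0.0556).

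Adamts12, the other COMP-cleaving enzyme, was at 97.8, 57.4 and 74.6 CPM in Control, 84.9, 103 and 55.1 CPM with PDGF-BB, and 81.0, 89.6 and 82.2 CPM with PDGF-BB+PTUPB. It is the longest expressed member, at 8600 bases, and its lowest libraries were the 2 that stood apart in length. No comparison called it. Comp, the gene for COMP, was at 3.67 ± 0.638 CPM in Control and 5.19 ± 0.451 CPM with PDGF-BB (SD, n = 3), and was not called.

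Adamts2 removes the amino-terminal propeptide of fibrillar procollagens. It was at 70.8, 76.7 and 77.3 CPM in Control, 48.7, 43.0 and 51.9 CPM with PDGF-BB, and 59.8, 68.9 and 63.7 CPM with PDGF-BB+PTUPB. The groups did not overlap, and PDGF-BB+PTUPB again lay between. The log2 fold change was -0.65 ± 0.09 with PDGF-BB (edgeR adjusted p = 0.000655) and 0.42 ± 0.09 with PTUPB added (0.0134). Both calls were lost with the correction for gene length, at -0.42 (0.0571) and 0.28 (0.229), the second also without PDGF-BB+PTUPB replicate 2 (0.0608). Of the other procollagen-trimming enzymes, Adamts14 and Adamts3 were below the FPKM threshold. Adamts3 had 49 to 86 counts in Control, 15 to 20 with PDGF-BB and 30 to 36 with PDGF-BB+PTUPB. With a filter that let it in, its fall with PDGF-BB was -1.62 ± 0.25 on the log2 scale (edgeR adjusted p = 0.00099).

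Adamts10 binds fibrillin and takes part in building microfibrils. It was at 125, 137 and 146 CPM in Control, 92.6, 93.6 and 79.4 CPM with PDGF-BB, and 127, 107 and 121 CPM with PDGF-BB+PTUPB. PDGF-BB lay below all other libraries, and the other groups overlapped. The log2 fold change was -0.62 ± 0.10 with PDGF-BB (edgeR adjusted p = 0.00103), called in all 21 alternatives. With PTUPB added it was 0.42 ± 0.10 (edgeR adjusted p = 0.0164), lost without PDGF-BB+PTUPB replicate 1 (0.0736) or replicate 3 (0.0622) and with limma at a pseudocount of 0.1 (0.0523). Its relative Adamts6 was at 16.1 to 29.1 CPM in Control, 17.4 to 26.9 with PDGF-BB and 24.0 to 25.9 with PDGF-BB+PTUPB, and no comparison called it.

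Of the 7 expressed transmembrane ADAMs with a working protease, Adam33 and Adam19 fell with PDGF-BB and none rose. Over all tested genes, 15.8% were called lower and 17.3% higher. Adam33, an ADAM of smooth muscle and other mesenchymal cells, was at 44.8, 43.3 and 45.4 CPM in Control, 29.9, 35.4 and 28.7 CPM with PDGF-BB, and 46.3, 43.3 and 43.9 CPM with PDGF-BB+PTUPB. All PDGF-BB libraries lay below the other 6, which overlapped. The log2 fold change was -0.51 ± 0.09 with PDGF-BB (edgeR adjusted p = 0.00228) and 0.51 ± 0.09 with PTUPB added (0.00542), both called in all 21 alternatives. Between PDGF-BB+PTUPB and Control it was 0.00, with a 95% interval of -0.20 to 0.20.

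Adam19, which can release neuregulin, had a different course. It was at 219, 219 and 183 CPM in Control, 140.5, 138 and 146 CPM with PDGF-BB, and 146, 132 and 141 CPM with PDGF-BB+PTUPB. Control lay above all treated libraries, and the treated groups overlapped. The fall with PDGF-BB was -0.55 ± 0.09 on the log2 scale (edgeR adjusted p = 0.000944). The difference between the treated groups was -0.01, with a 95% interval of -0.20 to 0.18. PDGF-BB+PTUPB was lower than Control by 0.57 ± 0.09 (edgeR adjusted p = 0.00755). The correction for gene length ended both calls against Control, with log2 fold changes of -0.34 (0.0704) and -0.48 (0.106), and leaving out PDGF-BB+PTUPB replicate 2 ended the second (0.0596).

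The main shedding enzymes were not called. Adam17 was at 167, 187 and 169 CPM in Control, 160.3, 158 and 148 CPM with PDGF-BB, and 163, 159 and 150.1 CPM with PDGF-BB+PTUPB. Its log2 difference with PDGF-BB was -0.17, with a 95% interval of -0.33 to -0.00447 before adjustment (edgeR adjusted p = 0.106). The Control libraries of Adam17 lay above all treated ones, by little. Adam10, which cuts Notch receptors and N-cadherin, was at 107, 89.3 and 94.8 CPM in Control, 82.6, 83.7 and 46.8 CPM with PDGF-BB, and 87.3, 81.5 and 82.2 CPM with PDGF-BB+PTUPB. PDGF-BB replicate 3 was far below every other library, and the log2 difference with PDGF-BB was -0.45 ± 0.18 (edgeR adjusted p = 0.0868). Without both libraries that stood apart it was smaller, -0.28, and called (0.0158).

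Adam9 and Adam15, shedding enzymes of many tissues, showed small differences of the same sign. Adam9 was at 101, 106 and 103 CPM in Control, 92.9, 91.0 and 66.5 CPM with PDGF-BB, and 108, 103 and 104 CPM with PDGF-BB+PTUPB. Adam15 was at 92.8, 77.9 and 81.8 CPM in Control, 74.8, 65.1 and 73.5 CPM with PDGF-BB, and 84.4, 86.7 and 84.4 CPM with PDGF-BB+PTUPB. In both genes PDGF-BB lay below all other libraries, by -0.30 and -0.24 on the log2 scale against Control. Neither was called (edgeR adjusted p = 0.066 and 0.0582), though Adam15 was without Control replicate 2 (0.0326) and Adam9 without PDGF-BB replicate 1 (0.0471). Adam12 ranged from 87.7 to 179.6 CPM in Control, with replicate 2 lowest, from 124 to 167 with PDGF-BB and from 122 to 139.8 with PDGF-BB+PTUPB, and was not called. Summed over the 9 transmembrane ADAMs of this class, expressed or not, levels were 210.5 to 237 FPKM in Control, 174 to 212 with PDGF-BB and 206 to 208 with PDGF-BB+PTUPB.

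Adam23 lacks a working protease site and acts in cell adhesion. It was the lowest expressed member, at 2.32 to 3.45 CPM in Control, 3.55 to 5.57 with PDGF-BB and 2.25 to 3.55 with PDGF-BB+PTUPB. The difference with PDGF-BB was 0.54 (95% interval -0.04 to 1.13) and not called.

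Among the ADAMTS-like proteins, which bind fibrillin microfibrils or other matrix, Adamtsl4 was called once. It was at 86.6, 71.3 and 85.0 CPM in Control, 75.7, 75.5 and 67.5 CPM with PDGF-BB, and 91.0, 91.0 and 90.0 CPM with PDGF-BB+PTUPB. The PTUPB libraries lay above all others. The log2 difference from PDGF-BB was 0.31 ± 0.09 (edgeR adjusted p = 0.0367), and it passed in only 8 of 21 alternatives. Leaving out any 1 of the 6 libraries compared ended it, with adjusted p between 0.0686 and 0.11.

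Adamtsl3 was at 67.4, 43.3 and 77.2 CPM in Control, 61.0, 65.3 and 51.0 CPM with PDGF-BB, and 75.0, 105 and 94.4 CPM with PDGF-BB+PTUPB. PTUPB lay above PDGF-BB in every library, and overlapped with Control. The difference of 0.63 ± 0.20 from PDGF-BB missed the threshold (edgeR adjusted p = 0.0537) and passed in 7 of 21 alternatives. Adamtsl5 was at 10.6 to 14.1 CPM in Control, 8.30 to 9.89 with PDGF-BB and 10.4 to 12.1 with PDGF-BB+PTUPB. Its log2 difference with PDGF-BB was -0.34 (edgeR adjusted p = 0.112), and -0.51 and called with the correction for gene length (0.0178). Summed over this class, levels were 36.3 to 40.0 FPKM in Control, 33.2 to 37.8 with PDGF-BB and 43.2 to 47.4 with PDGF-BB+PTUPB, the highest group, without overlap.

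**Figure D4:**
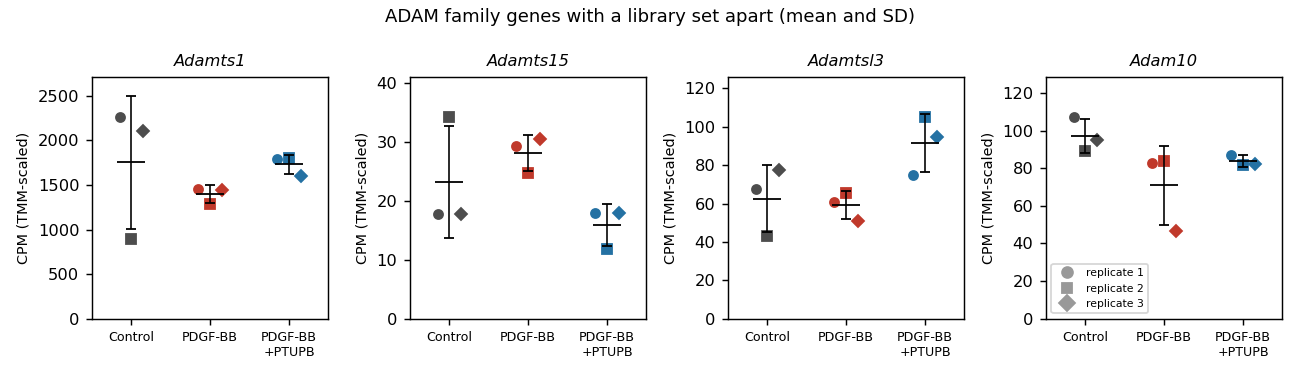
TMM-scaled CPM in each library of 4 members in which 1 library lay apart from the others of its group, with the mean and SD of each group (n = 3). Control replicate 2 lies apart from the other Control libraries in Adamts1, Adamts15 and Adamtsl3, and PDGF-BB replicate 3 lies apart in Adam10.

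Length moved with the comparisons as well as with the libraries. Across the 11197 tested genes, which are not independent of each other, Spearman's rho between log2 fold change and exonic length was -0.29 for PDGF-BB against Control, 0.20 for PDGF-BB+PTUPB against PDGF-BB, and -0.30 for PDGF-BB+PTUPB against Control. Adamts2 and Adam19, at 6558 and 6286 bases, lost their call with PDGF-BB under the length correction. Adamts7, Adamts10, Adamts5, Adamts8 and Adam33, at 6115, 4381, 3180, 3023 and 2391 bases, kept theirs. With that correction, 6, 6 and 2 members were called in the 3 comparisons, against 31.0%, 19.5% and 2.38% of all genes. The last 2 were Adamts5, lower, and Adamtsl3, higher, in place of Adamts7 and Adam19.

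Adamts9, another enzyme that cuts versican, was not expressed by the FPKM threshold but had countable reads on its 7965 bases. Its counts were 92 to 116 in Control, 41 to 55 with PDGF-BB and 46 to 63 with PDGF-BB+PTUPB, so that Control lay apart from both treated groups. With edgeR's own filter, which tested 12107 genes and 25 members, it was lower with PDGF-BB by 0.95 ± 0.18 on the log2 scale (adjusted p = 0.00327), and lower than Control by the same amount with PDGF-BB+PTUPB (0.0278). Under that filter 31.8% of genes were called with PDGF-BB. Adam1a and Adamts14 were not called there.

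The promoters of members that fell together with PDGF-BB are shown to set side by side the sequence before their start sites. RefSeq promoter sequences (GRCr8) were matched by symbol for 15 of the 21 expressed members. Among the 6 that fell, those of Adamts7, Adamts10, Adamts2 and Adam19 were matched. Each line gives the 250 bases before the annotated start, 5′ to 3′ on the gene's strand, which is the plus strand for all 4. Capitals mark motif letters, searched on both strands: TGANTCA (the AP-1 site), GGGCGG (the GC box), TATAAA (the TATA box), CACGTG (the E-box) and the CArG box of serum response factor.
Adamts7, chr8:99584279-99584528: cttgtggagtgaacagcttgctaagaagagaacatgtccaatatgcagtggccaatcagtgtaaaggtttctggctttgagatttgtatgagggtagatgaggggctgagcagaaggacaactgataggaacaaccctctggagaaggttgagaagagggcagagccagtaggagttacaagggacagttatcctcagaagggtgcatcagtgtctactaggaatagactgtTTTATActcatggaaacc
Adamts10, chr7:15033685-15033934: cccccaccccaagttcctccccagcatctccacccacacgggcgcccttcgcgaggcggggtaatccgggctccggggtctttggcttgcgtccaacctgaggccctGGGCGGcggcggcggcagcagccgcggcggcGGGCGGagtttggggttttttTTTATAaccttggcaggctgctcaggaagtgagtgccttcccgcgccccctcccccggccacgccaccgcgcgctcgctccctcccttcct
Adamts2, chr10:35421780-35422029: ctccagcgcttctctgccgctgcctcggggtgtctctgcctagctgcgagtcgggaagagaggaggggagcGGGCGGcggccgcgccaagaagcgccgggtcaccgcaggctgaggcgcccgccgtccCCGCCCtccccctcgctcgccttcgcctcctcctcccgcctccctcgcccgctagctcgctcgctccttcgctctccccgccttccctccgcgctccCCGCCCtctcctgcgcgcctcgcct
Adam19, chr10:30992511-30992760: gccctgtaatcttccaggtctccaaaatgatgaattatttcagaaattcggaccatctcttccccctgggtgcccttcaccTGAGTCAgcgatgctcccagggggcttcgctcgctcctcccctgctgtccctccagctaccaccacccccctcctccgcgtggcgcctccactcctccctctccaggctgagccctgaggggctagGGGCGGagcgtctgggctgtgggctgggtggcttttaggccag

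The 4 sequences differed in base composition, from 46.0% G and C in Adamts7 to 75.6% in Adamts2, with 62.8% in Adam19 and 70.4% in Adamts10. Adamts2 held 3 GC boxes, Adamts10 held 2 and Adam19 held 1, while Adamts7 held none. Over all expressed members with a promoter, 10 of 15 held a GC box, against 32.4% of 27457 RefSeq promoters. The RefSeq promoters were taken whether or not their gene was expressed in these cells, and no share over expressed genes alone was computed. TATAAA was found in Adamts7, Adamts10 and Adamts1, which makes 3 of 15 against 13.1%. In Adamts7 and Adamts10 it lay on the opposite strand, so that the capitals read TTTATA, with the first base of TATAAA 13 and 86 bases before the start. TGANTCA was found in Adam19 alone (6.36% of all promoters), CACGTG in Adam10 alone (5.80%) and a CArG box in none (1.501%). No motif searched for contains another, though a TATA box and a CArG box can share bases. These are letter matches in 1 window per gene, and no measurement of binding was made.

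Other genes of the protease pathway were taken from lists of inhibitors, activators and substrates. Over all tested genes, 33.2% were called with PDGF-BB, 18.3% with PTUPB added and 2.21% between PDGF-BB+PTUPB and Control. Of the 4 tested inhibitors, Timp1 rose with PDGF-BB and Timp2 and Timp3 fell. Timp1 was at 371 ± 40.3, 913 ± 109 and 622 ± 43.6 CPM (SD, n = 3) in Control, PDGF-BB and PDGF-BB+PTUPB. Timp3, the TIMP that inhibits ADAM17 and several ADAMTS enzymes, was at 27.1 ± 5.23, 14.6 ± 0.590 and 20.8 ± 1.13 CPM. Timp2 was at 1542 ± 81.1, 944 ± 77.8 and 1316 ± 39.6 CPM. Log2 fold changes with PDGF-BB were 1.30 ± 0.11, -0.89 ± 0.14 and -0.71 ± 0.08 for Timp1, Timp3 and Timp2 (edgeR, all called). With PTUPB added, all 3 were called in the opposite direction, at -0.55 ± 0.11, 0.51 ± 0.14 and 0.48 ± 0.08. The call for Timp3 held in 14 of 21 alternatives. Against Control, Timp1 was the 1 inhibitor called, higher by 0.75 ± 0.11. Timp4 was listed at 0 in all libraries. A 0 in this table does not by itself show that a gene is silent, since Fn1, the gene for fibronectin, which cultured smooth muscle cells make in quantity, was also listed at 0 in all libraries.

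Among 10 tested activators and trafficking partners of ADAM10 and ADAM17, 2 rose with PDGF-BB and 1 fell. This count was near the 33.2% called over all tested genes. Pcsk5, a proprotein convertase, which cuts the inhibitory prodomain from precursor proteins, went from 40.8 ± 1.19 to 23.7 ± 1.43 CPM and stood at 36.3 ± 2.01 CPM with PTUPB, and was called in both steps. Furin, the best-known convertase of the family, was at 224 ± 4.61, 204 ± 12.2 and 197 ± 10.8 CPM and was not called. Frmd8, which stabilises the partner proteins of ADAM17, and Tspan17, a tetraspanin partner of ADAM10, rose by 0.27 ± 0.08 and 0.50 ± 0.15 on the log2 scale, the second in 13 of 21 alternatives. Neither was called with PTUPB. Of the 2 enzymes that add sugars to thrombospondin repeats, B3glct fell with PDGF-BB by 0.34 ± 0.12 (edgeR adjusted p = 0.0491), a call kept in 6 of 21 alternatives, and Pofut2 was not called.

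Several genes for proteins that ADAMs shed fell with PDGF-BB. Of 21 tested receptors and adhesion molecules, 13 fell and 4 rose, with a median log2 fold change of -0.47 against -0.02 for all genes. Over all tested genes, 15.8% were called lower and 17.3% higher. Pdgfrb, the receptor of PDGF-BB itself, went from 1170 ± 23.9 to 569 ± 24.9 CPM, Ptprk from 106 ± 5.11 to 43.8 ± 2.54 CPM and Cdh2 (N-cadherin) from 430.2 ± 43.5 to 216 ± 26.8 CPM. Sdc1, a syndecan, went the other way, from 130 ± 2.24 to 254 ± 22.5 CPM. With PTUPB added, 8 of these 21 were higher and 2 lower than with PDGF-BB alone, against 8.28% and 10.0% of all tested genes. Pdgfrb, Cdh2 and Ptprk then stood at 917 ± 11.1, 352 ± 10.1 and 70.2 ± 9.81 CPM. Ptprk and Pdgfrb were also called lower than in Control, Pdgfrb in 10 of 21 alternatives. Of 7 tested growth factors and cytokines, 3 fell with PDGF-BB and none rose, against 15.8% and 17.3% of all tested genes. Cx3cl1, the chemokine fractalkine, went from 46.0 ± 15.3 to 7.52 ± 1.49 CPM and stood at 22.6 ± 2.20 CPM with PTUPB. Tgfa went from 329 ± 60.1 to 231 ± 17.6 CPM and to 367 ± 5.01 CPM with PTUPB. Ereg went from 51.6 ± 8.71 to 21.8 ± 4.44 CPM and was not called with PTUPB (30.5 ± 11.1 CPM).

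Genes for ADAMTS substrates changed in both directions. Vcan (versican), the only hyalectan tested of 4, rose with PDGF-BB from 1402 ± 105 to 2146 ± 646 CPM, which is 0.61 ± 0.19 on the log2 scale (edgeR adjusted p = 0.0318, kept in 15 of 21 alternatives, which ranged from 0.46 to 0.96). The Control and PDGF-BB libraries of Vcan overlapped. With PTUPB added, Vcan stood at 1441 ± 116 CPM, a log2 difference from PDGF-BB of -0.57 ± 0.19 that was not called (edgeR adjusted p = 0.0619). Reln, which encodes reelin, a secreted glycoprotein, rose from 3.77 ± 0.991 to 22.7 ± 1.47 CPM and fell to 11.4 ± 0.711 CPM with PTUPB. In FPKM, Reln was at 0.333 ± 0.0961 in Control, 2.10 ± 0.157 with PDGF-BB and 1.02 ± 0.0693 with PDGF-BB+PTUPB. As for Adam23, PDGF-BB alone would thus have carried Reln past the FPKM filter. Its rise with PDGF-BB was 2.58 ± 0.17 on the log2 scale with edgeR, 2.94 with the length correction and 1.22 with limma on log2(FPKM + 1), a scale that understates changes of low genes. Against Control, the level with PTUPB was 1.58 ± 0.17 higher with edgeR and 0.60 higher with limma, and all 3 comparisons called it in all 21 alternatives. Of the 11 tested members of that wider list, 3 rose (Reln, Tfpi2 and Fbln2) and 2 fell (Fbln1 and Dcn) with PDGF-BB, with a median of 0.03. Over all tested genes, 17.3% were called higher and 15.8% lower. Among 4 tested procollagens, Col3a1 rose from 2194 ± 352 to 5125 ± 303 CPM and fell to 2811 ± 542 CPM with PTUPB, while Col1a1 was not called (18645 ± 1955, 16968 ± 564 and 17322 ± 843 CPM). None of the 3 tested microfibril genes was called in any comparison. Fbn1 was at 2040 ± 191, 2176 ± 107 and 2264 ± 242 CPM, and Lox at 3304 ± 477, 4173 ± 837 and 3594 ± 135 CPM.

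Smooth muscle markers stood at unlike levels. Of 10 in the list 9 were expressed. The list summed to 2202 to 3128 FPKM in Control, 2602 to 2803 with PDGF-BB and 2692 to 2923 with PDGF-BB+PTUPB. Most of this was Tagln (1063 to 1418 FPKM in Control), Acta2 (556 to 780) and Cald1 (458 to 754). Myh11 was at 5.19 to 6.49 FPKM in Control, and Des, the marker not expressed, at 0 to 0.03. With PDGF-BB, 5 of the 9 expressed markers fell (Mylk, Myh11, Acta2, Cald1 and Lmod1) and 1 rose (Synpo2). Over all tested genes, 15.8% were called lower and 17.3% higher. Some adventitial fibroblast markers were also high. Of 6 in the list 5 were expressed, summing to 1035 to 1618 FPKM in Control, 614 to 943 with PDGF-BB and 1034 to 1208 with PDGF-BB+PTUPB, with none at 0 in all libraries. Scara5, Pdgfra and Col14a1 of that list fell with PDGF-BB and rose with PTUPB, as Adamts7, Adamts10, Adamts2 and Adam33 did. Mylk and Myh11 of the smooth muscle list took the same course. With PTUPB added, 3 of the 5 expressed fibroblast markers and 2 of the 9 expressed smooth muscle markers were called higher and none lower. Over all tested genes, 8.28% were called higher and 10.0% lower. Lum, the highest of the fibroblast list, and Pi16 were called in no comparison. The level of Lum was 461 to 979 FPKM in Control, 364 to 633 with PDGF-BB and 574 to 641 with PDGF-BB+PTUPB. The part of fibroblasts in the members' differences was not tested. No endothelial marker of 7 was expressed, with a sum of at most 0.78 FPKM and Cdh5, Kdr, Tie1 and Emcn listed at 0. Macrophage markers summed to at most 4.58 FPKM, nearly all Cd68, with Ptprc and Cd163 at 0. Schwann cell markers summed to at most 1.49 FPKM with Sox10 at 0, and chondrogenic markers to at most 12.2 FPKM, with Matn1 at 0 and none of the 2 tested called.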

How the data were processed

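RNA-seq was carried out on 9 libraries, 3 per group, grouped by the labels' titles and treatments. The tools used by the authors were cutadapt 1.9.1 for trimming, HISAT2 2.0.1 for alignment and HTSeq 0.6.1 for counting, per the submitters' processing notes. These notes name a mouse build, mm10, whereas all 32623 gene identifiers are rat Ensembl identifiers. Strand is not stated. The authors' deposited table has 1 expected count per gene and library, not whole for 978 genes and 2 members. It also holds FPKM by the authors, which the deposited counts and exonic lengths (in bases) gave back within 0.006 for 100% of values.

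Counts were rounded and fitted with edgeR 4.0.16 in R 4.3.3 (TMM scaling, quasi-likelihood F test, group only, all 9 libraries, 6 residual degrees of freedom). Genes were tested where 3 or more libraries had an FPKM of 1 or more. CPM are TMM-scaled. On library totals alone, without TMM factors, 3 counts correspond to 0.177 to 0.236 CPM. The length correction was a loess offset of span 0.5 on each library's deviation from the mean of all 9 libraries. It thus also removed differences between groups that went with length, and cannot tell these apart from differences between single libraries. Alternatives used limma 3.58.1 and DESeq2 1.42.0. The fits were tested on simulated data. Every expressed member is named, unexpressed ones where counts averaged at least 10 in a group, and from each list the 4 called genes with the smallest p at most, or, with none called, the 2 of highest level. Members and lists were chosen with earlier results of these data known. Genes overlapping a member had 0.059% of its counts (Adam15) or none.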

Additional observations from a re-analysis of the deposited data

How the results depend on the processing

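Of 1323 values of the 63 differences under 21 alternatives, 1247 stayed on their side of the threshold and kept their direction or moved by less than the spread. A further 42 passed the threshold newly, 32 no longer passed it, and 2 turned direction: Adamtsl3 for PDGF-BB against Control, from -0.08 to 0.18 with the gene-length offset and 0.19 with that offset and the replicate block, uncalled in each. Signs changed in 78 values of 19 differences, none called on either side, all with a main log2 fold change of at most 0.14 in size. Leaving out 1 library at a time, 7 to 11 members were called for PDGF-BB against Control, 4 to 9 for PDGF-BB+PTUPB against PDGF-BB, and 0 to 3 for PDGF-BB+PTUPB against Control. With Control replicate 2 and PDGF-BB replicate 3 both left out, these counts were 12, 11 and 5, against 7, 6 and 2 in the fit reported, and 38.1%, 25.2% and 12.0% of all genes were called, against 33.2%, 18.3% and 2.21%. With no filter beyond 1 count, 4 members were called for PDGF-BB+PTUPB against Control, with 1.66% of all genes. The gene-length offset with the replicate block left 3 members for PDGF-BB+PTUPB against PDGF-BB and 1 for PDGF-BB+PTUPB against Control. The shares of all genes called were then 15.7% and 1.84%. The replicate block alone gave 7, 5 and 2, with Adamtsl4 the 1 call lost, but replicate numbers are not said to pair the libraries. Correlations of the deviations of same-numbered libraries ran from -0.24 to 0.18, and not every library was closest to its own number. Beyond these, the cause of each change was not tested. Depth limits Adam23, at 2.25 to 5.57 CPM, and the 28 members not tested, where a missing call does not show that a difference is absent.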
